A study of Mus musculus with 3 samples.

Results

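A small share of the deposited barcodes held far more RNA than the rest without carrying the RNA of plasma cells, and these barcodes, chosen by their UMIs and detected genes, are described here. In droplet single-cell RNA sequencing each barcode marks 1 droplet, and each unique molecular identifier (UMI) counts 1 captured RNA molecule. A barcode was a member when it had more than 20000 UMIs or more than 4500 detected genes, at most 8% of its UMIs from mitochondrial genes, fewer than 2 UMIs over the T cell genes Cd3d, Cd3e and Cd3g, and fewer than 10 UMIs of Jchain, which encodes the joining chain of secreted IgM and IgA. The rule chose 179 of 25882 barcodes, of which 73 of 11269 came from the wild-type (WT) mouse spleen, 72 of 7579 from 3′RR-BCL2 and 34 of 7034 from Igκ-BCL2. The study's own filter removed every barcode over either limit, so none of the 179 entered its clusters.

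The 3 libraries were splenic preparations from mice of a mixed B6/129 background, 1 library per genotype. They were taken on day 10 after a single immunization with sheep red blood cells. Mice labelled Tg 3'RR-BCL2 carried, at a random site, a human BCL2 gene with its own promoter region placed under the core 3′ regulatory region of the immunoglobulin heavy chain locus. Mice labelled KI Igk-BCL2 carried the same cassette in the Igκ light chain locus, where it replaced the Jκ segments, and both lines were studied as hemizygous animals, while WT mice carried neither. The labels call the WT cells sorted B cells and both BCL2 preparations whole tissue cells, although the methods describe negative selection of B cells for all 3 sets. With 1 library per genotype, genotype, mouse, cell handling and library cannot be told apart, and no difference between libraries was tested. The human BCL2 gene was not among the counted genes, so the transgene could not be checked in any library. Ages of the mice were not given in the sources used here.

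Germinal centers are the sites in lymphoid follicles where B cells responding to antigen divide, mutate their antibody genes and are selected with the help of T cells. BCL6 and MEF2B are transcription factors of these cells. MYC drives growth before division, and cells near mitosis hold more RNA than resting lymphocytes. Upper limits on UMIs are commonly set to remove doublets, droplets that hold 2 cells. The 4 genes that mark this group are, on build GRCm38, Mki67 (a protein of dividing cells; chromosome 7, 135689784 to 135716361, minus strand), Top2a (a DNA topoisomerase of S phase and mitosis; chromosome 11, 98992943 to 99024189, minus strand), Myc (chromosome 15, 61985391 to 61990374, plus strand) and Mef2b (chromosome 8, 70139711 to 70167488, plus strand).

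Members made up 0.648% of the WT barcodes, 0.95% of those of 3′RR-BCL2 and 0.483% of those of Igκ-BCL2, with 95% Clopper-Pearson intervals of 0.508 to 0.814, 0.744 to 1.19 and 0.335 to 0.675%. Here and below, intervals cover counting error only. The members held 3.04%, 3.99% and 2.61% of all UMIs of the 3 libraries. Values in threes are given in the order WT, 3′RR-BCL2, Igκ-BCL2. The median member had 23727, 22775.5 and 23410.5 UMIs, which was 4.72, 4.3 and 4.84 times the median of the kept cells. Kept cells, by the study's filter as applied here, numbered 9932, 6561 and 6243, with medians of 5031, 5291 and 4838 UMIs. The fewest UMIs in a member were 18742, 18600 and 18937, and the most were 63200, 63395 and 105655. Both limits were passed by 122 members, the UMI limit alone by 49 and the gene limit alone by 8. These values were used by the rule and describe the members without testing anything.

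Beside the members, 116 barcodes over a limit (36, 59 and 21) had 10 or more UMIs of Jchain and were not members. By the classes defined below, 86 of the 116 were dividing and 13 non-dividing germinal center barcodes, so most were not plasma cells by these marks. Their median Jchain counts were 33, 31 and 35 UMIs. Genes of the plasma cell list differed in how far they followed the name of the group. Tnfrsf17, the BCMA receptor of plasma cells, had 0 UMIs in the 179 members, whose upper counting limits were 1.93, 2.03 and 3.77 UMIs per 1000000, against 8.47, 21.7 and 28.1 in the barcodes with Jchain. Prdm1, the transcription factor that drives plasma cell differentiation, had 6 UMIs in the members of each library, or 3.15, 3.30 and 6.13 UMIs per 1000000, against 6.16, 17.0 and 24.2 in the barcodes with Jchain. Members stayed below the barcodes with Jchain at Xbp1, a factor of the secretory program, with 50.3, 60.04 and 75.7 against 172, 203 and 323 UMIs per 1000000. Xbp1 in kept cells was 48.2, 61.3 and 55.9 UMIs per 1000000, close to the members. Other genes of the list were higher in members than in kept cells, with log2 ratios of 3.47, 2.19 and 3.09 for Derl3 and of 1.62, 1.14 and 2.10 for Sdf2l1, both of protein folding and degradation in the endoplasmic reticulum, and the list medians were 0.63, 0.22 and 0.93.

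To sort the members by content and not by depth, each barcode was thinned at random to 10000 UMIs. A barcode counted as dividing with at least 8 of 40 S phase and mitosis genes, as germinal center (GC) with at least 3 of 12 GC genes, and as Myc-high with at least 2 Myc UMIs and neither of the others. The 5 resulting classes of B-lineage barcodes are ranges of marker counts, not cell types. Of the 179 members, 20 were dividing GC barcodes, 50 were dividing without the GC genes, 28 were GC barcodes that were not dividing, 45 were Myc-high, 35 had none of these marks, and 1 was not of the B lineage. Dividing barcodes of both kinds made up 34 of 73 WT members (46.6%, 34.8 to 58.6), 23 of 72 from 3′RR-BCL2 (31.9%, 21.4 to 44.0) and 13 of 34 from Igκ-BCL2 (38.2%, 22.2 to 56.4). With a limit of 5 cell cycle genes in place of 8 these shares were 60.3%, 54.2% and 64.7%, so neither their size nor the order of the libraries held under that limit. Among kept cells of at least 10000 UMIs, classed in the same way, the dividing shares were 8.71%, 14.1% and 6.56% of 907, 758 and 457.

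**Figure D1:**
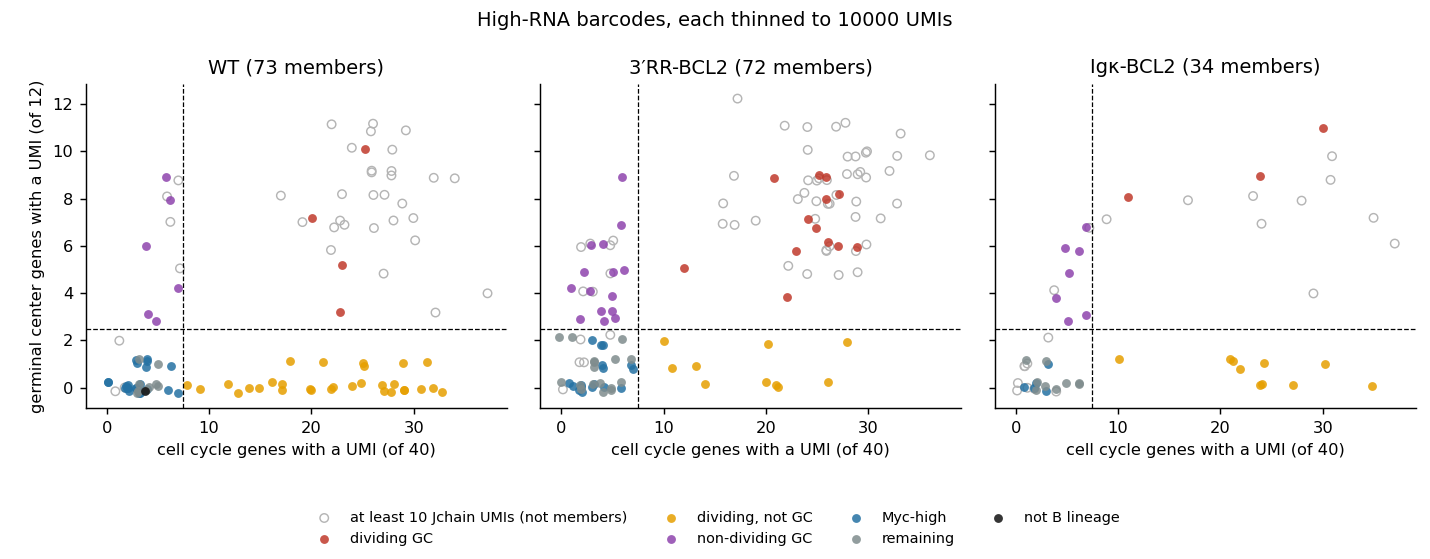
Each point is a barcode thinned to 10000 UMIs, with 1 panel per library; the x axis gives how many of 40 S phase and mitosis genes had a UMI and the y axis how many of 12 GC genes. Colors show the classes of members, open circles are high-RNA barcodes with 10 or more Jchain UMIs (not members), points are shifted slightly so that they do not hide each other, and dashed lines mark the class limits of 8 and 3 genes. Dividing members without GC genes lie along the bottom right, where the barcodes with Jchain have 0 points.

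On division, 64 members had 12 or more of the 40 cell cycle genes, 6 had 8 to 11 just over the limit, and 35 had 5 to 7 just under it. On the GC limit, 10 members lay at exactly 3 of the 12 genes and 9 at exactly 2, all 9 in 3′RR-BCL2, while 88 members had 0. The Myc limit cut through a continuous range, since 45 members had exactly 1 Myc UMI at this depth and 33 had exactly 2.

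The 50 dividing members without GC genes were the largest class, with 30 in WT (41.1%, 29.7 to 53.2), 10 in 3′RR-BCL2 (13.9%, 6.87 to 24.1) and 10 in Igκ-BCL2 (29.4%, 15.1 to 47.5). They carried a median of 23, 20 and 24 cell cycle genes, up to 33, 28 and 35, and at most 1, 2 and 1 of the GC genes. Their UMIs ran from 21243 to 63200 in WT with a median of 27084, from 18600 to 63395 in 3′RR-BCL2 with a median of 24987, and from 21635 to 105655 in Igκ-BCL2 with a median of 31466.5. All 11 members above 40000 UMIs (4, 3 and 4) were of this class. The rule left out barcodes with 10 or more Jchain UMIs at any depth. Of the 27 such barcodes above 40000 UMIs, 23 were dividing GC barcodes. At all sizes that limit left out 29, 47 and 10 dividing GC barcodes and 0 dividing barcodes without GC genes. The rank of this class among the members, and among the largest of them, therefore depends on the Jchain limit. The limit of 40000 was chosen after the values were seen.

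Cell cycle RNA was high in these barcodes. Its genes defined the class, so their levels are a description. Single barcodes had 0 to 70 UMIs of Mki67 in the WT library, 0 to 61 in that of 3′RR-BCL2, and 0 to 127 in that of Igκ-BCL2. As a sum over the class it stood at 634 (583 to 687), 320 (263 to 386) and 718 (641 to 803) UMIs per 1000000 UMIs, with exact Poisson intervals. Top2a stood at 574 (526 to 625), 326 and 567 (498 to 643). Both genes were lowest in 3′RR-BCL2. The intervals leave out the spread between barcodes, which was wide, so they do not serve to compare the libraries. Pclaf, a PCNA-binding protein of S phase, was at 631, 754 and 508, and Ube2c, which helps to degrade cyclins at the end of mitosis, at 234, 108 and 273 UMIs per 1000000.

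Genes of germinal centers were low in the same barcodes, as the limit on these genes fixed. Mef2b had 0 UMIs at full depth in 24 of 30, 10 of 10 and 8 of 10 of them, and 1 or 2 UMIs in the others. Basp1, a membrane protein of the GC list, was at 0, 5.87 and 28.0 UMIs per 1000000, beside 10.4, 83.0 and 41.4 in all kept cells. Bcl6 was at 4.36, 20.5 and 2.33 UMIs per 1000000.

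Plac8, a gene that no class limit used, had UMIs in 30 of 30, 10 of 10 and 10 of 10 barcodes. Plac8 encodes a small cysteine-rich protein found in follicular, marginal zone and other B cells. It stood at 1624 (1543 to 1709), 1021 (916 to 1134) and 1234 (1131 to 1344) UMIs per 1000000 in the dividing barcodes without GC genes, against 30.3, 154 and 0 in the dividing GC members. In Myc-high members Plac8 was at 1422, 1219 and 1181, in members of no mark at 1164, 921 and 1587, and in non-dividing GC members at 117, 340 and 157. Nearly all of the heavy chain RNA was of the unswitched kind, and 0 of the 50 barcodes had most of their heavy chain constant UMIs from switched isotypes. Ighg1, the constant region of IgG1, was at 5.44, 0 and 65.3 UMIs per 1000000, while Ighm was at 2730, 2572 and 2892.

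The mature naive genes were present but low. Ighd, the constant region of IgD, was at 259, 334 and 308 UMIs per 1000000, between dividing GC members (141, 174 and 31.8) and Myc-high members (739, 774 and 1008). Klf2, a factor of resting lymphocytes that controls exit from tissue, was at 358, 560 and 413 against 902, 1010 and 836 in Myc-high members. Cd74, the invariant chain of antigen presentation, was at 6348, 7094 and 6979 UMIs per 1000000, the lowest of the 5 classes in all 3 libraries.

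Of the MYC and ribosome biogenesis list, 10, 13 and 11 of 14 genes were higher in these barcodes than in kept cells of the class, with medians of 0.21, 0.50 and 0.27 on the log2 scale, beside 1459, 1498 and 1419 of all 2870 genes compared. Srm, the spermidine synthase that MYC activates, was at 134, 144 and 196 UMIs per 1000000, against 64.4, 33.1 and 118 in Myc-high members and 25.1, 21.9 and 50.8 in the members with none of the marks. Myc itself was at 183, 120 and 84.0, below the Myc-high class (362, 395 and 263), for which it was selected.

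Most of the strongly dividing barcodes without GC genes lay over the limits of the filter. Among barcodes of at least 10000 UMIs with 12 or more cell cycle genes and fewer than 3 GC genes, 28 of 41 from WT were members (68.3%, 51.9 to 81.9), 8 of 12 from 3′RR-BCL2 (66.7%, 34.9 to 90.1) and 9 of 9 from Igκ-BCL2 (100%, 66.4 to 100). The others, 13, 4 and 0, were kept cells. Of these 45 members, 31 had 0 of the 12 GC genes (22, 5 and 4). For barcodes with 12 or more cell cycle genes and at least 3 GC genes, the upper limits removed 55.9% in WT (42.4 to 68.8), 44.1% in 3′RR-BCL2 (35.6 to 52.9) and 55% in Igκ-BCL2 (31.5 to 76.9), of 59, 136 and 20, and most of those removed had Jchain (29 of 33, 47 of 60 and 9 of 11). The minimum of 12 genes was chosen after the values were seen. With the class limit of 8 genes, the removed shares were 42.3%, 50% and 58.8% of the dividing barcodes without GC genes, and 46.5%, 38.2% and 36.1% of the dividing GC barcodes.

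**Figure D2:**
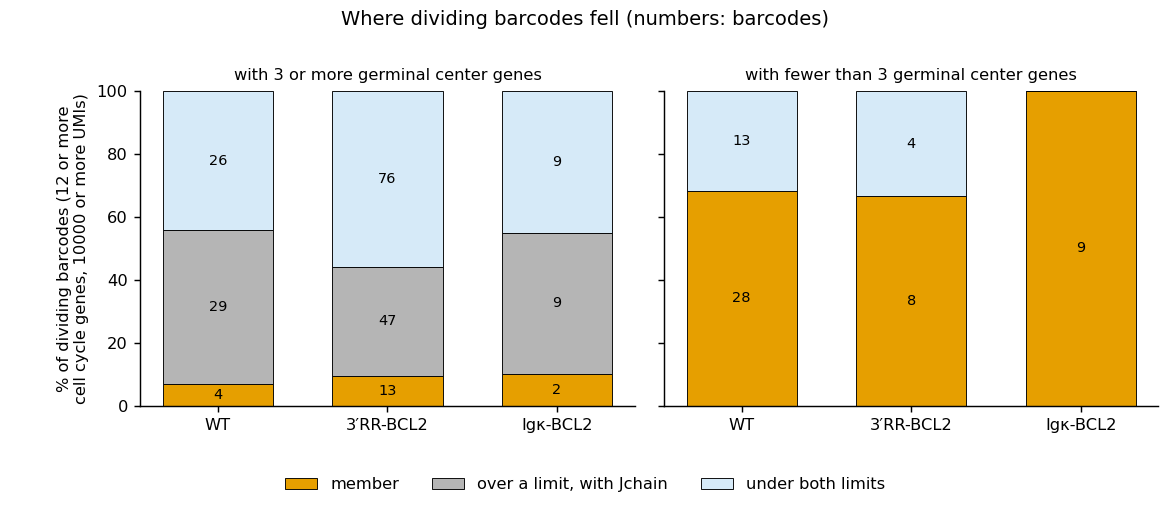
Stacked bars give the percent of barcodes with at least 10000 UMIs and 12 or more cell cycle genes that were members (orange), over a limit with Jchain (grey) or under both limits and kept (light blue), in each library, for barcodes with at least 3 GC genes on the left and fewer than 3 on the right; numbers in the bars are barcodes. Members take 28, 8 and 9 barcodes on the right against 4, 13 and 2 on the left, and barcodes with Jchain appear on the left only.

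The dividing GC members were fewer, with 4 in WT (5.48%, 1.51 to 13.4), 13 in 3′RR-BCL2 (18.1%, 9.98 to 28.9) and 3 in Igκ-BCL2 (8.82%, 1.86 to 23.7). Their share among dividing members was 4 of 34 (11.8%, 3.30 to 27.5), 13 of 23 (56.5%, 34.5 to 76.8) and 3 of 13 (23.1%, 5.04 to 53.8). In the dividing barcodes with Jchain the GC share was 29 of 29, 47 of 47 and 10 of 10, and in dividing kept cells of at least 10000 UMIs it was 48.1% of 79, 90.7% of 107 and 76.7% of 30. The order of the 3 libraries, with WT lowest and 3′RR-BCL2 highest, was shared by members and kept cells, and with 1 library per genotype it was not tested.

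UMIs of Mki67 and Mef2b were found in each of the 20 dividing GC members, of Top2a in 19 and of Myc in 16. Mki67, Top2a, Mef2b, Basp1 and Rgs13 were among the genes that defined this class, so their levels are a description. In WT the 4 barcodes had 9, 15, 19 and 41 UMIs of Mki67 and 2, 3, 3 and 8 of Mef2b. In Igκ-BCL2 the 3 barcodes had 3, 18 and 34 UMIs of Mki67 and 6, 6 and 10 of Mef2b, and the 13 of 3′RR-BCL2 had 2 to 62 and 1 to 9. Summed over the class, Mki67 was at 849 (677 to 1051), 860 (766 to 963) and 874 (659 to 1138) UMIs per 1000000, with overlapping intervals in all 3 libraries, and Mef2b at 162 (92.4 to 263), 199 (155 to 252) and 350 (219 to 529). Basp1 was at 536, 461 and 811 UMIs per 1000000, and Rgs13, a regulator of chemokine receptor signaling, at 263, 168 and 191.

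Class-switched RNA, which no limit used, was common in this class alone among the dividing members. Switched isotypes supplied most heavy chain UMIs in 3 of 4, 7 of 12 and 1 of 3 barcodes with at least 10 such UMIs. Ighg1 stood at 970 (786 to 1185), 732 (645 to 827) and 763 (563 to 1012) UMIs per 1000000. In kept dividing GC cells the switched share was 43.2%, 51.1% and 39.1%, and in dividing GC barcodes with Jchain it was 58.6%, 63.8% and 40%.

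**Figure D3:**
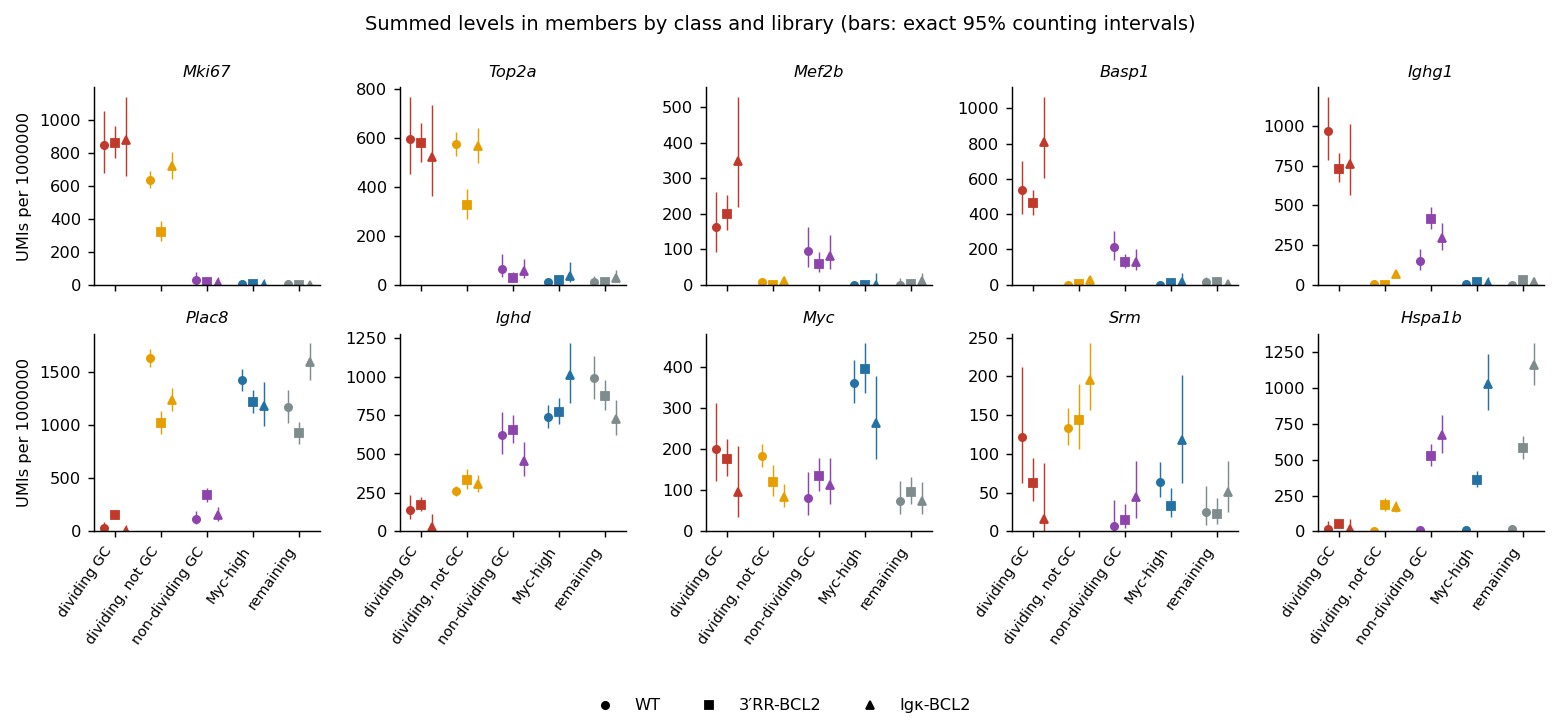
Levels of 10 genes in UMIs per 1000000 UMIs are shown by class of member, with 1 marker per library and exact 95% Poisson intervals for counting error. Mki67 and Top2a are high in both dividing classes, Mef2b, Basp1 and Ighg1 in the dividing GC class, and Plac8 is low in the dividing GC class. Mki67, Top2a, Mef2b, Basp1 and Myc were used to define the classes, and Ighg1 and Plac8 were not.

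Dividing GC members were set beside kept cells of the same class and library with at least 10000 UMIs. Both were classed after thinning to 10000 UMIs, while levels were summed over their full counts. Of the 5 genes of the MYC and ribosome biogenesis list with enough UMIs, 5, 5 and 4 were higher in the members. The list medians were 1.02, 0.86 and 0.53 on the log2 scale. Of all 508 genes compared, 252, 251 and 286 were higher, with medians of 0.00, -0.01 and 0.07. Ranbp1, which serves nuclear transport, was higher by 1.02, 1.14 and 0.89. Npm1, the nucleolar chaperone nucleophosmin, differed by 1.27, 0.86 and -0.18. Myc was higher by 1.26 (0.40 to 2.04), 1.53 (1.03 to 2.02) and 1.68 (-0.13 to 3.30) on the log2 scale, so that in Igκ-BCL2 its interval reached equality. Mki67 differed by 0.76, -0.01 and 0.72. Jchain had log2 ratios of -2.16, -2.15 and -1.59, as the rule leaves out barcodes rich in it. The kept cells had no such limit, with medians of 9.5, 10 and 7 Jchain UMIs. Members and kept cells thus differed in the Jchain limit as well as in total RNA, and its part in the ratios of other genes was not tested. The comparison of each of the other classes with its kept counterpart was chosen after the values were seen.

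In dividing barcodes without GC genes, mitosis genes were higher than in kept cells of that class, with list medians of 1.62, 1.45 and 3.09 on the log2 scale, and above 0 for 6, 5 and 6 of 6 genes. The S phase list had medians of 0.57, 0.79 and 1.46, above 0 for 16, 14 and 16 of 16 genes. The naive follicular list was lower, with medians of -0.88, -0.90 and -1.14 over 7 genes. Of all 2870 genes compared, 1459, 1498 and 1419 were above 0, with medians of 0.01, 0.04 and -0.01. The kept cells of this class lay nearer to the limit, with a median of 9 cell cycle genes in WT against 23 in the members, so members and kept cells of the class differed in how far they passed it.

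Non-dividing GC members numbered 6 in WT (8.22%, 3.08 to 17.0), 15 in 3′RR-BCL2 (20.8%, 12.2 to 32.0) and 7 in Igκ-BCL2 (20.6%, 8.70 to 37.9). Bcl6 was at 191, 71.6 and 87.7 UMIs per 1000000 in them, Rgs13 at 235, 80.6 and 93.9, and Mef2b at 95.5, 59.7 and 81.4, all genes of the list that defined the class. With a limit of 5 cell cycle genes the shares were 2.74%, 11.1% and 2.94%, and after thinning to 5000 UMIs the share in 3′RR-BCL2 was 8.33%, so the size of this class depends on the limits. They also held naive RNA. Ighd was at 624, 657 and 457 UMIs per 1000000, against 141, 174 and 31.8 in the dividing GC members, and it was 0.82, 0.69 and 0.64 log2 units higher than in kept non-dividing GC cells, whereas Basp1 had log2 ratios of -0.53, -1.27 and -0.93 to them. Over the naive follicular list, 3, 4 and 4 of 5 genes were above the kept cells, with medians of 0.17, 0.47 and 0.19, and the medians over all 1054 genes compared were 0.05, -0.02 and 0.04. From these counts, 2 cells in a droplet and 1 cell with RNA of both stages cannot be told apart.

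Unsupervised clustering of the 179 members gave 6 clusters, 1 of which was made only of 12 non-dividing GC members (2, 6 and 4). Its leading genes were Apoe, the lipoprotein that many GC B cells express, Laptm5, a lysosomal protein that lowers B cell receptor levels, H2-Ob, the inhibitory chain of peptide loading on class II molecules, Ppp1r15a and Junb. The 12 had a median of 6 GC genes, and 2 of them had 3 or 4. The other 16 non-dividing GC members lay among other clusters, had a median of 4 GC genes, and 12 of them had 3 or 4.

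Most dividing members lay in 1 cluster. It held 53 barcodes (24, 17 and 12), of which 19 were dividing GC and 34 were other dividing ones, and was led by Mki67, Cenpf, Hist1h2ap, Ube2c and Pclaf. A cluster of 20 (12, 5 and 3), with 10 dividing barcodes without GC genes, 7 Myc-high and 3 of no mark, was led by Hspd1, Eif5a, Mif, Ncl and Npm1, genes of mitochondrial folding, translation and the nucleolus. A cluster of 19 (9, 10 and 0), 13 of them Myc-high, was led by Cr2, Plac8, Ly6a, Tcf4 and Malt1, and a cluster of 36 (13, 18 and 5) by Cd55, Gpr183, Cmah, March1 and Add3. Cr2 encodes the complement receptor that is highest on marginal zone B cells, and Gpr183 (EBI2) guides B cells outside the follicle center. The cluster of 39 (13, 16 and 10) was led by S100a6, Rgs1, S100a11, Ftl1 and Hspa1b, with S100a6 in only 5 of its barcodes. Genes that lead a cluster were also used to build it, so they describe it and test nothing, and the clusters were given no cell type names.

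The Myc-high members, 23 in WT (31.5%, 21.1 to 43.4), 17 in 3′RR-BCL2 (23.6%, 14.4 to 35.1) and 5 in Igκ-BCL2 (14.7%, 4.95 to 31.1), had few UMIs of division genes. Mki67 was at 0 UMIs in 22 of 23, 14 of 17 and 5 of 5 of them. Myc ran from 2 to 25 UMIs per barcode in WT and from 2 to 22 in 3′RR-BCL2, and was 4, 6, 6, 6 and 7 in Igκ-BCL2. Kept cells of at least 10000 UMIs were Myc-high in 44.7%, 31.3% and 28.9%. Against kept Myc-high cells, 10, 8 and 10 of 11 genes of the MYC and ribosome biogenesis list were higher. The list medians were 0.59, 0.37 and 1.16 on the log2 scale. Of all 847 genes compared, 406, 447 and 484 were higher, with medians of -0.01, 0.01 and 0.08. Srm was higher by 1.19, 0.09 and 1.89, and Myc itself differed by -0.19, -0.07 and -0.52. Cd69, an early activation antigen, was at 574, 658 and 509 UMIs per 1000000 in Myc-high members and at 717, 691 and 355 in the members with no mark.

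Members with none of the marks numbered 9 (12.3%, 5.80 to 22.1), 17 (23.6%, 14.4 to 35.1) and 9 (26.5%, 12.9 to 44.4). Klf2 was at 1279, 1394 and 955 UMIs per 1000000 in them, the highest of the 5 classes in each library, although in Igκ-BCL2 the non-dividing GC members were close with 945, and Ighd at 988, 877 and 729. Their UMIs ran from 19389 to 30476, 19447 to 25475 and 20225 to 32573. At equal depth the number of detected genes did not mark them out, with medians of 3020, 3055 and 3012 genes at 10000 UMIs, against 2971, 2965 and 3018.5 in the dividing members without GC genes.

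**Figure D4:**
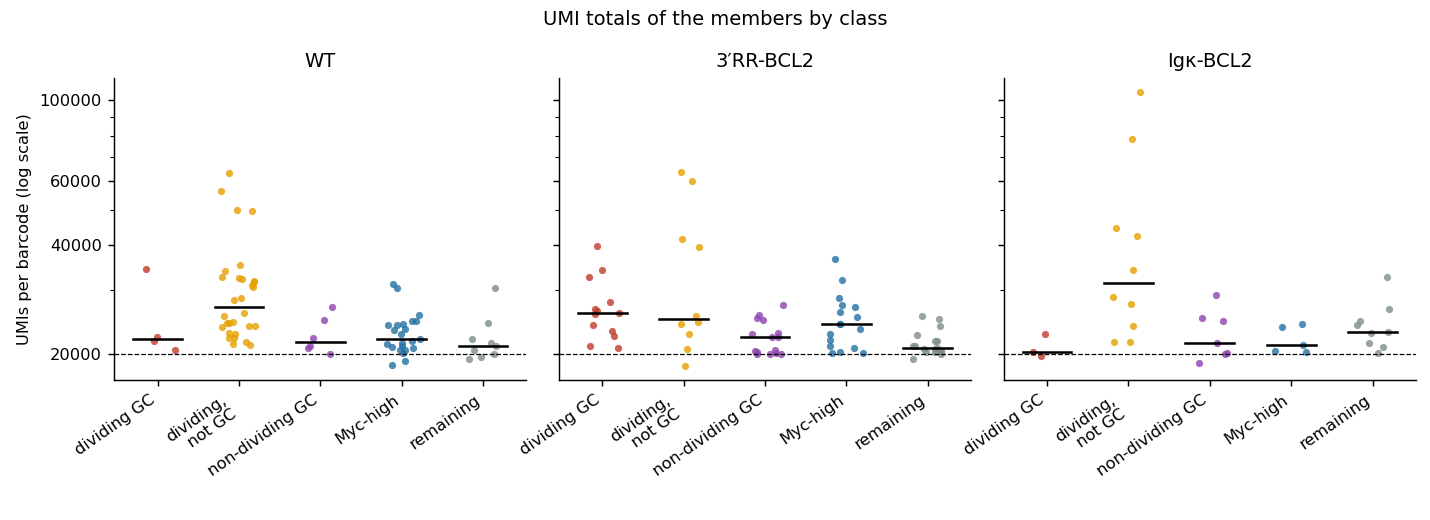
UMIs per barcode on a log scale for every member, by class and library; horizontal lines are medians and the dashed line is the limit of 20000 UMIs. Members of no mark stay between 19389 and 32573 UMIs, while dividing members without GC genes reach 63200, 63395 and 105655.

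The limits cut through continuous ranges. Between 20001 and 22000 UMIs there were 21, 28 and 12 members, and between 18000 and 20000 UMIs there were 23, 46 and 17 kept cells. The members just inside held 3, 1 and 2 dividing barcodes without GC genes, and the kept cells just outside held 0, 0 and 1. Dividing GC barcodes were 2, 2 and 1 just inside and 2, 6 and 2 just outside. On the Jchain limit, 2, 13 and 4 members had 5 to 9 UMIs of it, of which 2, 8 and 2 were dividing GC barcodes, and 6, 5 and 4 barcodes just outside had 10 to 14, of which 4, 3 and 2 were dividing GC ones. Jchain had 0 UMIs in 119 of the 179 members.

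The members as a whole were then set against all kept cells of the same library, gene by gene, as a description, since the rule used total RNA. A gene was compared when members or, at the kept level, their expectation reached 20 UMIs in each library, and was counted when it differed at least 2-fold in the same direction in all 3. Of 6366 genes compared, 206 were higher in members (3.24%) and 6 were lower (0.0943%). The 10 highest were genes of division, led by Ube2c (log2 ratios of 5.43, 2.24 and 6.02), Birc5, the survivin of the chromosomal passenger complex (5.46, 2.41 and 4.97), Pclaf (4.92, 3.18 and 4.87) and Cenpf, a kinetochore protein (5.17, 2.28 and 4.81), followed by Mki67 (4.55, 2.03 and 4.52), Kif11, Cdca8, Cks1b, Hist1h1b and Spc24. The ratio was smallest in 3′RR-BCL2 for all 10. The 10 genes with the lowest ratios by the naming rule had 3.07 to 29.7 UMIs expected in members, and 0 of them passed the minimum in all libraries.

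By their medians, the cell cycle lists were the highest of the 25 lists examined. In the mitosis list 18 of 19 compared genes were higher and 0 lower, with medians of 4.70, 2.28 and 4.52 on the log2 scale. Hmmr, a spindle protein, was highest beside Ube2c, with 5.68, 2.35 and 5.57, and Cenpa, the histone of centromeres, was the exception with 0.19, -0.29 and 0.15. In the S phase list 17 of 18 were higher, with medians of 2.73, 1.98 and 2.53, from Pclaf and the replication loader Cdc6 (4.70, 2.57 and 5.61) down to Fen1 (1.08, 1.17 and 1.51) and Pcna (1.5, 0.78 and 1.16). The medians over all 6366 genes were -0.08, 0.02 and -0.02.

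Growth genes had smaller ratios. Of 14 compared genes of the MYC and ribosome biogenesis list, 3 passed 2-fold upward in every library and 0 downward, with medians of 0.98, 0.89 and 1.27. The 3 were Srm (2.07, 1.73 and 2.82), Ranbp1 (1.63, 1.49 and 1.82) and Nme1 (1.47, 1.20 and 1.97), while Myc had log2 ratios of 0.11, 0.08 and -0.18. In the glycolysis list 2 of 12 passed upward, the enzymes Tpi1 (1.75, 1.27 and 1.72) and Ldha (1.57, 1.06 and 1.83), with list medians of 1.06, 0.78 and 1.23, and Slc2a1, the glucose transporter GLUT1, had -0.37, -0.29 and -0.51.

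GC and zone genes did not pass as a group. In the GC list 0 of 5 compared genes differed 2-fold in all libraries, with medians of 1.39, 0.41 and 0.96. Basp1 had log2 ratios of 2.11, 0.52 and 1.11, Rgs13 of 2.10, 0.44 and 0.41, Mef2b of 1.39, 0.34 and 1.15, Fas, the death receptor of GC B cells, of 1.13, 0.41 and 0.96, and Bcl6 of -0.61, -0.39 and -1.04. In the dark zone list, 2 of 4 compared genes passed upward, the mitotic genes Ccnb1 (4.35, 2.45 and 4.16) and Plk1 (3.93, 2.41 and 4.22), whereas the chemokine receptor Cxcr4, which draws cells to that zone, had -0.79, -0.64 and -1.26. The light zone list had 0 of 8 in either direction and medians of -0.20, -0.12 and -0.19, with 0.73, 0.56 and 1.84 for the survival gene Bcl2a1b and -0.93, -0.12 and -0.54 for the costimulatory receptor Cd40.

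Activation genes likewise gave 0 of 11 in either direction, with medians of 0.04, -0.32 and -0.11. Ccnd2, the D cyclin of activated B cells, had the highest ratios with 0.92, 1.11 and 3.08, and Egr2, an early response factor, had 0.86, 0.27 and 0.65. Irf4, which controls plasma cell and GC fates, had -0.73, -0.43 and -0.74, and Cd69 had -0.71, -0.58 and -0.67. The naive follicular list had 1 of 7 genes lower and 0 higher, with medians of -1.09, -0.70 and -1.18. The 1 gene was Cd55, which protects cells from complement (-1.62, -1.17 and -2.24), and Ighd had -1.29, -0.69 and -1.15. In the marginal zone list 1 of 3 compared genes passed upward, Fcrl5 (1.59, 1.46 and 1.22), while Cr2 had -0.26, 0.46 and -0.53.

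The other lists gave few genes past 2-fold. The plasma cell list had 2 of 7 higher and 0 lower, Derl3 and Sdf2l1. The interferon list had 1 of 4 higher, Isg15 (1.07, 1.02 and 1.49), and the BCL2 family list 1 of 9, Bcl2a1d (1.36, 1.27 and 2.999), a prosurvival gene with near-identical copies whose reads counting may split. Bak1, a pore-forming killer of the family, had 1.17, 0.63 and 1.17, and the mouse Bcl2 gene had -0.62, -0.51 and -0.34. The B lineage list had 0 of 4, with medians of -0.46, -0.28 and -0.60. The transitional list had 0 of 2 and the B-1 and memory list 0 of 2 in either direction.

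**Figure D5:**
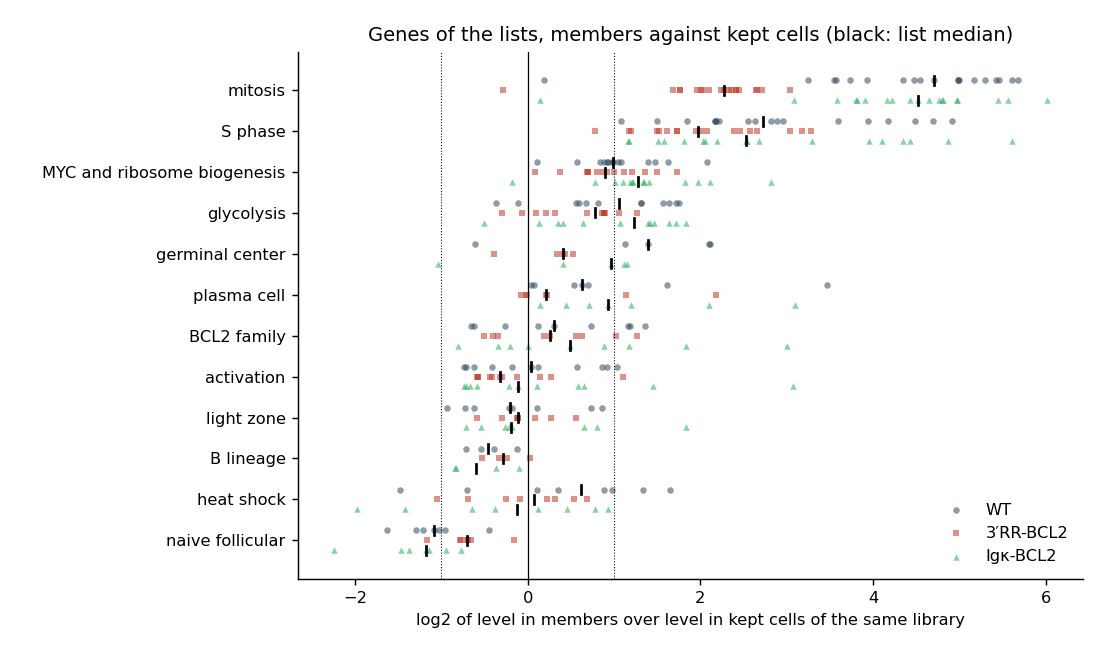
Each point is a gene of 1 of 12 lists, placed by its log2 ratio of members to kept cells of the same library and colored by library; black marks are list medians and dotted lines mark a 2-fold difference. S phase and mitosis genes lie to the right of the lines in all libraries but for the few named in the text. The median ratio of the mitosis genes is lowest in 3′RR-BCL2.

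Levels of heat shock genes differed between libraries in most classes. Against kept cells, 1 of 8 compared genes was lower and 0 higher in members, the chaperone gene Hspa1b (-1.48, -1.05 and -1.98), and the list medians were 0.62, 0.07 and -0.13. Hspa1b stood at 6.29, 343 and 557 UMIs per 1000000 in members, beside 18.3, 711 and 2194 in kept cells. Hspa1a and Hspa1b are near-identical copies, so how reads were divided between them is uncertain. The labels give the WT cells another handling, and its part in the difference cannot be told apart from that of genotype.

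Within classes, the difference between libraries was present in some and not in others. In members of no mark Hspa1b had 3 UMIs over 9 barcodes in WT (15.05 UMIs per 1000000), 212 over 17 in 3′RR-BCL2 (579) and 251 over 9 in Igκ-BCL2 (1158). Relative to WT, the log2 ratios were 5.05 (3.70 to 7.56) and 6.05 (4.70 to 8.55). Dnajb1, a cochaperone, was higher by 2.18 and 2.23, and 9 of 9 and 9 of 9 heat shock genes were above WT, with medians of 1.11 and 1.38. Over all genes compared in this class, 1492 of 2855 and 919 of 1910 were above WT, with medians of 0.03 and -0.02. In dividing GC members 5 of 7 and 1 of 5 heat shock genes were above WT, with medians of 0.10 and -0.60, beside 1819 of 2980 and 350 of 755 of all genes compared, so the list did not stand above the background there. In dividing members without GC genes 8 of 9 and 7 of 9 were above WT, with medians of 0.39 and 0.31, beside 2656 of 5496 and 2711 of 5517 of all genes compared. Both BCL2 libraries were set against the same WT library.

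Other genes of the members with no mark that differed most from WT were few. In 3′RR-BCL2, S100a6 was higher by 4.95 log2 units but came from 3 of 17 barcodes, and Vim, an intermediate filament, was higher by 2.46. In Igκ-BCL2, Rgs1, a regulator that limits migration of GC and activated B cells, was higher by 2.10, while Apoe had a log2 ratio of -2.54 and Cr2 of -1.84. Ccl5 and Gzma were also far above WT in Igκ-BCL2, and both came from 1 barcode.

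Rgs1 stood above the WT level in the dividing GC members of either BCL2 line. It had 5 UMIs over the 4 WT barcodes (50.5 UMIs per 1000000), 111 over 13 in 3′RR-BCL2 (316) and 55 over 3 in Igκ-BCL2 (874), log2 ratios of 2.51 (1.38 to 4.296) and 3.99 (2.80 to 5.79). In 3′RR-BCL2 the stress-response factor Klf6 and the dominant-negative helix-loop-helix factor Id3 were higher by 2.55 and 2.40, and Cd83, an activation marker of the light zone, had a log2 ratio of -1.43. Mif, a cytokine, had log2 ratios of -1.57 and -1.65. Npm1 in Igκ-BCL2 was at 731 against 3143 UMIs per 1000000 in WT, a log2 ratio of -2.09, and Ldha had -1.90. In the MYC and ribosome biogenesis list 2 of 14 and 1 of 11 genes were above WT, with medians of -0.59 and -0.57. Of all genes compared in this class, 1819 of 2980 and 350 of 755 were above WT, with medians of 0.15 and -0.06. These levels rest on 4, 13 and 3 barcodes of 1 mouse library each.

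In the dividing members without GC genes the mitosis list was lower in 3′RR-BCL2 than in WT, with 0 of 19 genes above WT and a median of -1.09, and 12 of 19 with a median of 0.13 in Igκ-BCL2. Cenpf was at 55.7 UMIs per 1000000 in 3′RR-BCL2 against 263 in WT, a log2 ratio of -2.21, and Ccnb2, a mitotic cyclin, had -2.51. In 3′RR-BCL2 Cenpf had UMIs in 4 and Ccnb2 in 2 of 10 barcodes, and in WT in 19 and 15 of 30. The S phase list had 12 of 20 and 5 of 20 genes above WT, with medians of 0.07 and -0.23. Over all genes compared in this class, 2656 of 5496 in 3′RR-BCL2 were above WT and 2711 of 5517 in Igκ-BCL2, so 12 of 20 was near the background. Egr3, an early response factor of antigen receptor signaling, had log2 ratios of -3.04 and -2.21, and Egr1 of -2.05 in Igκ-BCL2. UMIs of Egr3 were in 2 of 10 and 5 of 10 barcodes, against 18 of 30 in WT. Cr2 in Igκ-BCL2 was at 74.6 against 279 UMIs per 1000000 in WT (-1.88), and 0 of 5 genes of the marginal zone list were above WT there, with a median of -1.52. Il4i1, an amino acid oxidase induced by IL-4, was higher by 3.26 in Igκ-BCL2 but had UMIs in only 5 of 10 barcodes, and Bcl2a1d was higher by 2.02. These sums weigh each barcode by its UMIs, and the largest barcodes of Igκ-BCL2 had 78332 and 105655 UMIs against a class median of 31466.5. How far single barcodes set these ratios was not tested. The comparison of this class between libraries was chosen after the values were seen.

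Signs of 2 cells in a droplet that did not use total RNA were examined in each member. Light chain RNA of both kinds, with the minor kind at 20% or more of at least 10 UMIs, was found in 40 of 72, 38 of 72 and 20 of 34 members (55.6%, 52.8% and 58.8%). Among kept cells of at least 10000 UMIs the shares were 60.1%, 51.9% and 63.7%, near those of the members. With a lambda share of 40 to 80%, a range chosen after the values were seen, the shares were 15.3%, 13.9% and 23.5% of members and 13%, 9.01% and 23.8% of kept cells. A second Igkv gene could not be scored, since 0 members had 10 Igkv UMIs at this depth. The doublet caller Scrublet marked 0, 2 and 0 barcodes of the whole libraries and 0 members, too few to be of use, and no barcode was removed as a doublet.

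Light chain RNA was mostly lambda in some of the largest dividing barcodes. A lambda share of 80% or more was found in 5, 0 and 3 members, of which 5, 0 and 2 were dividing barcodes without GC genes. The 5 of WT had 22141, 32455, 35198, 49755 and 49923 UMIs, and the 2 of Igκ-BCL2 had 78332 and 105655. Among kept cells of at least 10000 UMIs 1.44%, 2.38% and 14.1% had such a share.

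UMIs of another lineage were rare in members. In barcodes thinned to 10000 UMIs, at least 5 UMIs over the marker genes of other lineages were found in 1, 0 and 1 members, against 1.76%, 1.58% and 1.09% of kept cells of at least 10000 UMIs. At full depth, the WT barcode (26662 UMIs) had 508 UMIs of Lyz2 and 6 of Csf1r, genes of macrophages and monocytes, with 1 of Cd79a, 5 of Cd79b and 0 of Ms4a1, and was the 1 member not of the B lineage. The Igκ-BCL2 barcode (24764 UMIs) had 327 UMIs of Ccl5, 66 of Gzma, 18 of Nkg7 and 13 of Klrk1, genes of NK and cytotoxic T cells, together with 47 of Cd79a, 24 of Cd79b and 16 of Ms4a1. It held RNA of 2 lineages and was the source of Ccl5 and Gzma in its class.

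At full depth 2, 0 and 1 members had 5 or more UMIs over the macrophage and monocyte list. Over all members this list summed to 278, 4.41 and 5.11 UMIs per 1000000, from 7, 3 and 1 of its 7 genes, against 45.4, 12.3 and 3.11 in kept cells. The NK list summed to 0.524, 1.10 and 113, and the T cell list to 2.10, 3.86 and 20.4, while erythroid genes gave 6.82, 10.5 and 3.07 and dendritic cell genes 6.29, 12.1 and 7.16. Neutrophil, platelet and stromal genes had at most 3 UMIs per list and library. None of the genes of these 8 lists reached the minimum for the gene comparison in all 3 libraries (0 compared). Shared barcode sequences between libraries were few, with 15 for WT and 3′RR-BCL2, 24 for WT and Igκ-BCL2 and 18 for 3′RR-BCL2 and Igκ-BCL2, and 0 were members in both libraries of a pair.

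Mitochondrial shares of members were near those of kept cells, and ribosomal shares were higher. Mitochondrial genes took a median of 2.72%, 2.79% and 2.53% of the members' UMIs and 2.70%, 2.17% and 2.36% of those of kept cells. Ribosomal protein genes took 29.95%, 27.8% and 28.3% against 24.5%, 24.98% and 23.4%, and 0 members were under the study's minimum of 10%.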

How the data were processed

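Splenic B cells of 3 mice preparations (WT, 3′RR-BCL2, Igκ-BCL2; 1 library each) were captured with the Chromium Single Cell 3′ v3.1 kit. The deposited files hold raw UMI counts for 32285 genes per barcode, made by the authors with Cell Ranger (version 6.1.1 per the submitters' processing notes, which name builds mm10 and hg38). Library totals were 62777659, 45539172 and 37433924 UMIs. UMIs are counted molecules, but exact Clopper-Pearson and Poisson 95% intervals cover counting error only. With 1 library per genotype no test was possible, and no p-value is given.

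Kept cells followed the study's stated filter of 800 to 4500 genes and no more than 20000 UMIs. Mitochondrial genes took up to 8% of these UMIs and ribosomal protein genes 10% or more. The study also removed T and myeloid cells by Cd3 and C1q genes but states no limit for them. Fewer than 2 UMIs each over the Cd3 and C1q genes was the limit set here. Barcodes were thinned without replacement to 10000 UMIs for classes and clusters. Levels are UMIs per 1000000, and 0.5 was added to sums in log2 ratios. A gene entered the comparison of members with kept cells when the larger of its UMIs in members and those expected at the kept level reached 20 in every library. Clusters used 2000 variable genes, 15 components, 15 neighbours and Leiden resolution 1.0 (scanpy 1.11.5, leidenalg 0.10.2), and Scrublet was run in scanpy. Other steps used Python 3.11.15, numpy 2.4.6, scipy 1.17.1, pandas 2.3.3 and matplotlib 3.10.9. Scripts were tested on simulated data.

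Genes named in the text were the 4 markers, the 2 highest and 2 lowest of each list, the 10 highest and 10 lowest of all genes with at least 100 UMIs, 6 each way per pair of libraries with at least 50 UMIs, and 5 leading genes per cluster. Other genes, such as Ighg1, were chosen after their values were seen. The members and the 25 lists were chosen with earlier results of these data known. Alternatives were another depth of 5000 UMIs, other class limits, other totals and minimums, and removal of barcodes with light chain RNA of both kinds or with genes of another lineage. Mx1 was not in the files. Values of some list genes are not reported here.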

Additional observations from a re-analysis of the deposited data

How the results depend on the processing

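No paired analysis was possible because each genotype had 1 library and no test was made. Of 379 alternative values, 333 moved by less than their interval or by less than 1.5 times for counts, and 46 moved further. A change of direction could be scored only for log2 ratios of genes, where 0 were found. Most of those alternatives changed only the totals, which shifts all ratios by a similar small amount, so that count says little. Shares and counts could not be scored for direction. In order WT, 3′RR-BCL2, Igκ-BCL2, the gene limit alone gave members' shares of 0.497%, 0.673% and 0.327%. Thinning to 5000 UMIs gave Myc-high and no-mark shares of 15.1% and 37.0% in WT, and non-dividing GC and no-mark shares of 8.33% and 45.8% in 3′RR-BCL2. With 5 cell cycle genes as the limit, dividing shares were 60.3%, 54.2% and 64.7%, non-dividing GC shares 2.74%, 11.1% and 2.94%, the dividing share without GC genes in 3′RR-BCL2 26.4% and the dividing GC share in Igκ-BCL2 26.5%. With 1 Myc UMI as the limit, no-mark shares were 5.48%, 9.72% and 11.8% and the Myc-high share in 3′RR-BCL2 was 37.5%; with 3 it was 12.5%. By cluster in place of gene number, 32.9% of WT members were dividing. Light chain RNA of both kinds was in 86.1%, 93.1% and 91.2% with the minor kind at 10% or more, in 25%, 22.2% and 38.2% at 30%, and in 15.3%, 13.9% and 23.5% with lambda at 40 to 80%. With 12 cell cycle genes, removed shares were 68.3% in WT and 100% in Igκ-BCL2 without GC genes and 55% in Igκ-BCL2 with them. Without members with light chain RNA of both kinds, higher genes numbered 1 in the GC, 1 in the glycolysis and 1 in the plasma cell list, and lower heat shock genes 0. That step took out 40, 38 and 20 members by a sign about as common in kept cells, under the same UMI minimum. It therefore does not show what doublets contribute. Totals without immunoglobulin, ribosomal and mitochondrial genes gave 5 higher genes of the MYC and ribosome biogenesis list. A minimum of 50 UMIs gave 103 higher and 2 lower genes, with 1 in the plasma cell list and 0 lower heat shock genes, and a minimum of 5 gave 356 and 12. The cause of these shifts was not tested. The Igkv alternatives gave no value. Classes of 3 to 30 barcodes limit every share, and the class limit on Myc and the UMI limit both cut through continuous ranges.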
